A study of Mus musculus with 9 samples.

Results

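Lair1 and 9 other genes of T cell surface receptors were examined in CD4+ T cells. The cKO cells were targeted for deletion of the histone demethylase gene Kdm6a, and the WT cells were not. The 9 other genes were Lag3, Havcr2, Tigit, Cd160, Btla, Vsir, Cd200, Cd96 and Cd226. The 10 genes were chosen by name with earlier results of the same cKO against WT comparison in view, so their genotype differences are given here as a description. All 10 were found among the 39017 gene IDs of the table, and all 10 were among the 14693 genes that passed the filter on low counts. RNA-seq counts came from CD4+ T cells of lymph nodes of male C57BL/6 mice. In the 4 cKO samples (replicates 2, 6, 7 and 8) the cells had a floxed Kdm6a allele over the Y chromosome and CD4-Cre (+/-). The 5 WT samples (replicates 1, 3, 4, 5 and 9) had the same floxed allele and no Cre, CD4-Cre (-/-). All 9 samples therefore carried the floxed allele, and loss of Kdm6a cannot be told apart from the presence of Cre. CD4-Cre acts wherever the Cd4 promoter has been active, which includes developing T cells in the thymus. The labels give neither the age of the mice nor any treatment of the cells, and the deposited table has the word "stim" in its name. Nothing in the labels says whether the samples came from separate mice, so the spread between them may be partly technical.

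Inhibitory receptors hold T cells in check after they have been activated. LAIR1 binds collagen and recruits phosphatases through tyrosine motifs in its tail, LAG-3 binds MHC class II, TIM-3 (Havcr2) binds galectin-9 among other ligands, and BTLA and CD160 share the ligand HVEM (Tnfrsf14). TIGIT, CD96 and the costimulatory CD226 compete for nectins and the poliovirus receptor Pvr. VISTA (Vsir) restrains T cell responses, and CD200 is the ligand of the inhibitory receptor CD200R1. KDM6A removes methyl groups from lysine 27 of histone H3, a mark that Polycomb complexes place, often at promoters rich in CpG dinucleotides. No histone mark was measured in these samples.

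The stretch around the start of Lair1 is shown because Lair1 was the receptor gene whose RNA differed most, and those of Vsir and Cd200 because they held the most CpG dinucleotides among the receptors whose stretch was at hand. Each runs 5′ to 3′ from 250 bases before to 50 after the RefSeq start (GRCm38.p6), with every CG dinucleotide in capitals. Lair1 is read on the minus strand of chr7:4063155-4063454, Vsir on the plus strand of chr10:60346601-60346900 and Cd200 on the minus strand of chr16:45409004-45409303.
Lair1: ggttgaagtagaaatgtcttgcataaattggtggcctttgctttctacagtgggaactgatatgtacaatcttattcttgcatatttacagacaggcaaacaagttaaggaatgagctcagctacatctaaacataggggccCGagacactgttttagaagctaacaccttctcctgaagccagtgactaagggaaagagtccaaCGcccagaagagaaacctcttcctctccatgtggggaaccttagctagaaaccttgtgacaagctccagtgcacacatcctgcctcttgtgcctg
Vsir: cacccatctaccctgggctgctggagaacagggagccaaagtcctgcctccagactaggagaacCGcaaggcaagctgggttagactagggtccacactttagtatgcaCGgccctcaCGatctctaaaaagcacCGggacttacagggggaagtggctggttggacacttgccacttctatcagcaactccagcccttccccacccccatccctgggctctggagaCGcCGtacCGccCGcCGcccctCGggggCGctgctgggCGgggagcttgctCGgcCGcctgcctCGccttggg
Cd200: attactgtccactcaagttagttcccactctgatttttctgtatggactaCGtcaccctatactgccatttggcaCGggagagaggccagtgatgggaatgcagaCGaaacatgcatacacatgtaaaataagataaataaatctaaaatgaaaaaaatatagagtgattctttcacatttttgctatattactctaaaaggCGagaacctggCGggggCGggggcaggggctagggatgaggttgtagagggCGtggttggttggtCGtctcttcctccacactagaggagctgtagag
The Lair1 stretch held 2 CG dinucleotides, and 23.3% of the 32851 RefSeq promoters of the same length held as few. Vsir held 15 and Cd200 held 8, and 34.6% and 48.6% of promoters held at least as many. Across the 8 receptor genes with a sequence, the count ran from 2 (Lair1) to 15 (Vsir), with 3 for Havcr2, 4 for Cd96, 5 for Tigit and for Btla, and 6 in each of 2 promoters of Cd160. These are letters in a window and say nothing of what binds there.

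The targeted gene and the lineage were checked first. Kdm6a was at 41.8, 42.7, 41.5 and 44.8 CPM (counts scaled to a common library size, with TMM factors) in cKO 2, 6, 7 and 8, against 62.4, 60.04, 63.8, 63.4 and 63.8 CPM in WT 1, 3, 4, 5 and 9 (log2 fold change -0.55, SE 0.04, edgeR adjusted p = 2.89e-05). The table sums over whole genes and gives no value for the floxed exons alone, so the extent of deletion was not measured. Its Y-linked paralog Uty was at 0.24 (SE 0.05, edgeR adjusted p = 0.00695), and its autosomal relative Kdm6b at 0.05 (SE 0.23, edgeR adjusted p = 0.917). Cd4 averaged 957 CPM ± 43.6 (SD, n = 4) in cKO and 873 CPM ± 35.6 (SD, n = 5) in WT (edgeR adjusted p = 0.0480), a call that was lost in 8 other settings. Total counts ran from 20587482 to 26387488 per sample.

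Lair1 RNA was lower in cKO cells. It was at 2.11, 0.953, 2.02 and 1.74 CPM in cKO 2, 6, 7 and 8, against 5.0, 6.83, 6.39, 7.51 and 7.18 CPM in WT 1, 3, 4, 5 and 9. The lowest cKO sample was cKO 6 and the lowest WT sample was WT 1, and the groups did not overlap. In reads, that is 23 to 50 counts per cKO sample and 129 to 188 counts per WT sample, so counting error is a visible part of the cKO values. The means were 1.71 CPM ± 0.525 (SD, n = 4) in cKO and 6.58 CPM ± 0.976 (SD, n = 5) in WT, a log2 fold change of -1.95 (SE 0.20), or 74.1% lower. By fold, Lair1 stood at place 17 among the 1296 genes called lower in cKO. Since these are bulk samples, fewer cells with Lair1 and less Lair1 RNA per cell cannot be told apart. Lair1 (ENSMUSG00000055541) lies on the minus strand of chromosome 7 from 4003402 to 4063204 of mm10, and no other annotated gene overlaps it.

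Of the 10 receptor genes, Lair1 was the 1 that passed an adjusted p of 0.05 in edgeR as lower in cKO, against a background of 8.82% of all genes tested. None passed as higher, against a background of 7%. At unadjusted p under 0.05, 3 were lower and 3 were higher, against 16.3% and 14.9% of all genes. DESeq2 called 1 lower and 1 higher, which was Cd96, against 8.73% and 7.06% of all genes, and limma-voom called 1 lower and 0 higher, against 8.64% and 6.91%. Lair1 was also the 1 receptor gene of 10 whose genotypes did not overlap with cKO lower, where 8.78% of all genes were so, and 0 of 10 did not overlap with cKO higher, where 7.08% were so. The contrast was known when the genes were chosen, so nothing is read from these counts. The median log2 fold change was 0.13 over the 10 genes and 0.001 over all genes tested.

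**Figure D1:**
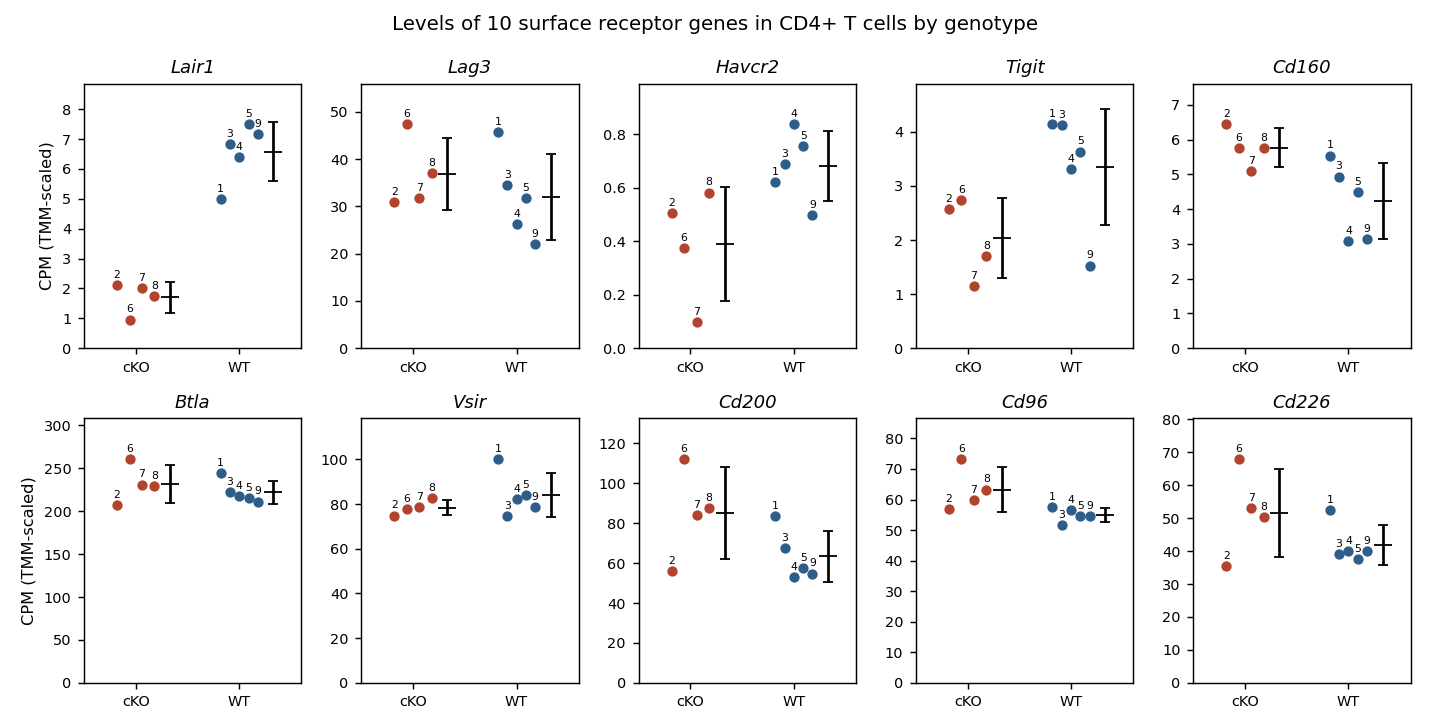
CPM of the 10 receptor genes (vertical axes, each from 0) in 4 cKO and 5 WT samples; points are samples with their replicate number, and bars are mean and SD. The cKO points of Lair1, from 0.953 to 2.11 CPM, lie below all WT points, from 5.0 to 7.51 CPM, while the genotypes overlap in the other 9 genes.

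Tigit and Havcr2, like Lair1, averaged less in cKO, but their samples overlapped. Tigit was at 2.57, 2.73, 1.15 and 1.70 CPM in cKO 2, 6, 7 and 8, against 4.15, 4.12, 3.31, 3.64 and 1.53 CPM in WT 1, 3, 4, 5 and 9. WT 9 lay inside the cKO range, and the other 4 WT samples lay above it. The log2 fold change of Tigit was -0.70 (SE 0.30), which did not pass, and without WT 9 it was -0.89 and passed. Havcr2 was barely detected, with 12, 9, 2 and 13 counts in cKO 2, 6, 7 and 8, against 16, 16, 19, 16 and 13 counts in WT 1, 3, 4, 5 and 9. At this depth its log2 fold change of -0.77 (SE 0.35) did not pass. Without cKO 7, the sample with 2 counts, it was -0.47.

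Cd96 and Cd226, which share ligands with Tigit, averaged more in cKO, again with overlap. Cd96 was at 56.8, 73.3, 59.7 and 63.2 CPM in cKO 2, 6, 7 and 8, against 57.6, 51.6, 56.5, 54.6 and 54.6 CPM in WT 1, 3, 4, 5 and 9. A single pair crossed, cKO 2 lying below WT 1. The log2 fold change of Cd96 was 0.20 (SE 0.07) and did not pass in edgeR, but passed with DESeq2, with upper-quartile scaling (0.22) and without cKO 2 (0.25). Cd226, the activating receptor of the same ligands, was at 35.3, 68.0, 53.0 and 50.2 CPM in cKO 2, 6, 7 and 8, against 52.4, 39.0, 39.9, 37.6 and 40.0 CPM in WT 1, 3, 4, 5 and 9. The sample cKO 2 lay below every WT sample, and WT 1 lay between cKO 8 and cKO 7. The log2 fold change of Cd226 was 0.30 (SE 0.16), which was 0.45 and passed without cKO 2, and 0.14 without cKO 6.

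Btla, Cd160 and Vsir overlapped between genotypes. Btla, the most abundant of the 10 genes, ran from 207 to 261 CPM in cKO and from 211 to 245 CPM in WT, a log2 fold change of 0.06 (SE 0.06). Cd160, which shares its ligand with Btla, was at 6.45, 5.76, 5.09 and 5.77 CPM in cKO 2, 6, 7 and 8, against 5.54, 4.94, 3.09, 4.49 and 3.13 CPM in WT 1, 3, 4, 5 and 9. Only cKO 7 of the cKO samples lay below the highest WT sample, WT 1. Its log2 fold change of 0.45 (SE 0.17) did not pass, and without WT 1 it was 0.57 and passed. Vsir ran from 74.8 to 82.7 CPM in cKO and from 74.6 to 100.3 CPM in WT (log2 fold change -0.10, SE 0.07). Pdzk1 and Cdh23 overlap Cd160 and Vsir on the opposite strand, and since the strand setting of the counting is not given, reads of these pairs may be mixed.

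Lag3 and Cd200 overlapped between genotypes as well. Lag3 was at 31.0, 47.4, 31.7 and 37.0 CPM in cKO 2, 6, 7 and 8, against 45.7, 34.5, 26.2, 31.8 and 21.99 CPM in WT 1, 3, 4, 5 and 9. Its log2 fold change of 0.20 (SE 0.19) did not pass, and was 0.05 without cKO 6, 0.09 without WT 9, 0.37 without WT 1 and 0.28 without cKO 2. Cd200 was at 56.2, 112, 83.9 and 87.4 CPM in cKO 2, 6, 7 and 8, against 83.6, 67.6, 53.1, 57.6 and 54.7 CPM in WT 1, 3, 4, 5 and 9. The log2 fold change of Cd200 was 0.42 (SE 0.18), which did not pass with all 9 samples. It passed at 0.58 without cKO 2 and at 0.55 without WT 1, and was 0.26 without cKO 6. In both genes cKO 6 was the highest and cKO 2 the lowest cKO sample, and WT 1 was the highest WT sample, while the lowest WT sample was WT 9 for Lag3 and WT 4 for Cd200.

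Levels of different genes were compared per exonic kilobase, as CPM divided by the summed length of all annotated exons. In cKO the order ran from Btla at 68.3 ± 6.56 (SD, n = 4) through Cd96 at 29.0, Cd200 at 25.6, Lag3 at 17.4, Vsir at 15.7, Cd226 at 10.6, Tigit at 2.22 and Cd160 at 2.18 to Lair1 at 0.228 ± 0.0703 (SD, n = 4) and Havcr2 at 0.143. In WT, Btla was at 65.4 ± 3.91 (SD, n = 5), Cd96 at 25.2, Cd200 at 19.1, Vsir at 16.8, Lag3 at 15.2, Cd226 at 8.55, Tigit at 3.64, Cd160 at 1.604, Lair1 at 0.880 ± 0.131 (SD, n = 5) and Havcr2 at 0.250. Btla lay above all others in every sample of both genotypes. Neighbours from Cd96 down to Cd226 overlapped in their WT samples, as did Tigit and Cd160, whereas Cd226 and Tigit, Cd160 and Lair1, and Lair1 and Havcr2 did not. In cKO samples the range of Lair1, from 0.127 to 0.282 per kilobase, overlapped that of Havcr2, from 0.0353 to 0.214.

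**Figure D2:**
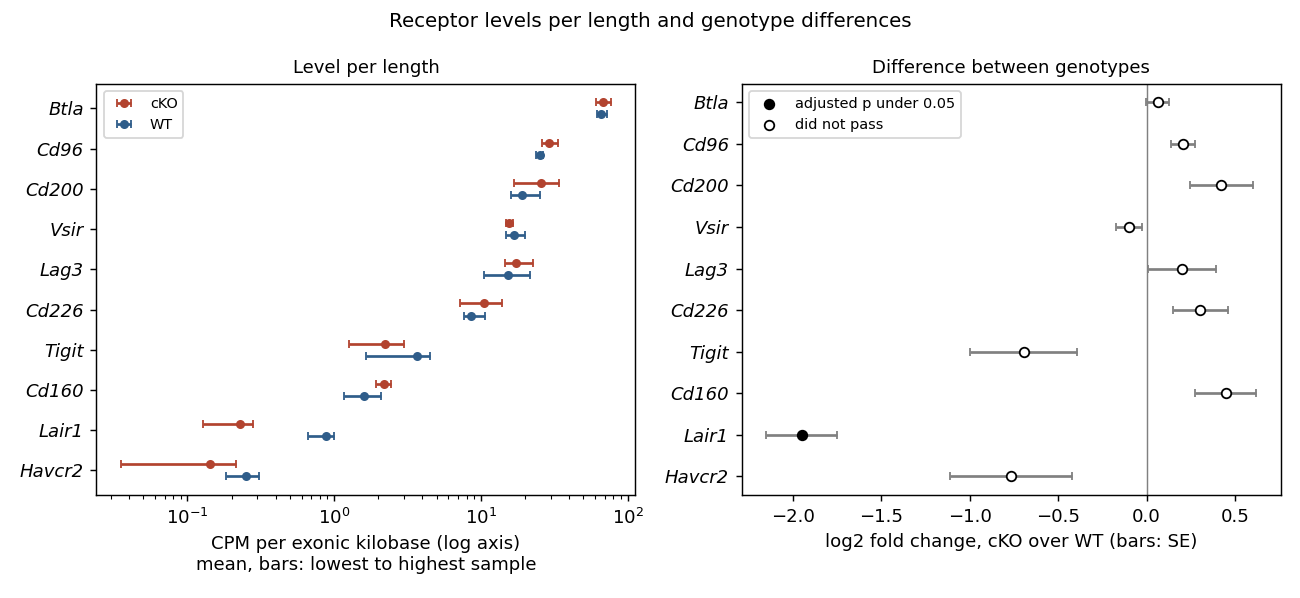
Left, CPM per exonic kilobase on a log axis for the 10 receptor genes, as mean with bars from the lowest to the highest sample; right, log2 fold change of cKO over WT with SE, filled where the adjusted p was under 0.05. Btla is highest at 68.3 in cKO and 65.4 in WT, and Lair1 is the 1 filled point, at -1.95.

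Differences among samples of the same genotype, which the choice of genes did not use, are described next. Among the 4 cKO samples, cKO 6 was the highest for 6 of the 10 genes, namely Lag3, Tigit, Btla, Cd200, Cd96 and Cd226, and it was the highest for 26.8% of all genes tested. Among the 5 WT samples, WT 1 was the highest for 8 of the 10 genes, all but Lair1 and Havcr2, and for 25.1% of all genes. Lair1 was instead at its lowest in cKO 6 and WT 1, as were 28.01% and 25.7% of all genes. At the other end, cKO 2 was the lowest cKO sample for Lag3, Btla, Vsir, Cd200, Cd96 and Cd226, and it was the lowest for 27.4% of all genes.

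Expressed as log2 CPM minus the mean of the sample's own genotype, Lair1 deviated by -0.73 in cKO 6 and -0.38 in WT 1. Lag3 deviated by 0.39 in cKO 6 and 0.56 in WT 1, and Cd200 by 0.44 in cKO 6 and 0.42 in WT 1. Most genes of T cell activation stood high in the same samples: 8 of 11 lay above their genotype mean in cKO 6 and 9 of 11 in WT 1, with Il2ra and Mki67 below it in both. Nr4a3, an early response gene, was at 778, 915, 529 and 722 CPM in cKO 2, 6, 7 and 8, against 689, 297, 170.2, 370.04 and 183 CPM in WT 1, 3, 4, 5 and 9. The activation marker Cd69 was at 105, 161, 104 and 107 CPM in those cKO samples, against 125, 74.4, 52.8, 77.3 and 56.0 CPM in the WT samples. Neither Nr4a3 nor Cd69 passed between genotypes (edgeR adjusted p = 0.0546 and 0.0857). Il2ra was lower in cKO, at 2569 CPM against 3182 CPM in WT (log2 -0.31, SE 0.08, edgeR adjusted p = 0.0190). Cd44 averaged 101 CPM in cKO and 128 CPM in WT and did not pass (edgeR adjusted p = 0.0563). Over 11 activation genes the median deviation was 0.24 in cKO 6 and 0.43 in WT 1, and over all genes tested it was -0.002 in each of these samples. The 11 include Nr4a1, Nr4a3 and Irf4, which were added to the listed activation genes. These additions lay above their genotype mean in both cKO 6 and WT 1. The part of activation in the receptor levels was not tested. Regulatory T cell markers, among them Foxp3 at 102 CPM in cKO and 103 CPM in WT, summed to between 739 and 972 CPM in cKO and between 708 and 903 CPM in WT, led by Tnfrsf18 and Gpr83, and 1 of the 8, Ikzf2, rose.

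**Figure D3:**
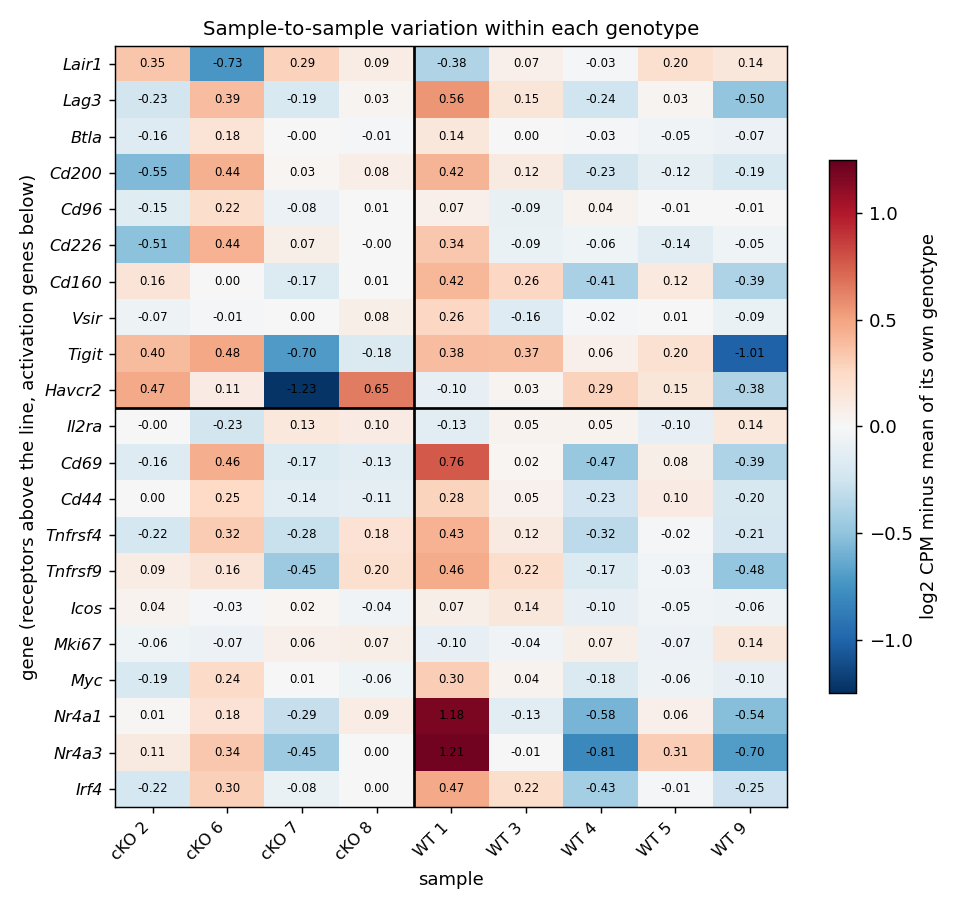
Deviation of log2 CPM from the mean of the sample's own genotype for the 10 receptor genes and 11 activation genes (rows) in 4 cKO and 5 WT samples (columns), printed in each cell. In cKO 6 and WT 1 most rows are positive, such as Cd200 at 0.44 and 0.42, while Lair1 is at -0.73 and -0.38.

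Genes whose pattern over the 9 samples was most like that of Lair1 were sought among 13200 genes that averaged 1 CPM or more. The 6 with the highest Pearson r of log2 CPM were Isg20, an interferon-induced exonuclease (0.993), Gpnmb, a transmembrane glycoprotein (0.990), Gstp3, a glutathione transferase (0.989), Iqgap2, a scaffold protein (0.989), the ID ENSMUSG00000097978 (0.987) and Thy1, a GPI-anchored surface protein (0.984). All of these were lower in cKO, and the genotype difference is itself part of each r. Thy1 averaged 287 CPM in cKO and 1048 CPM in WT (log2 fold change -1.87, SE 0.14, edgeR adjusted p = 3.42e-05). On deviations from the genotype means, the 6 closest were Ubac2 (0.958), 1700066B19Rik (0.956), B4galt4 (0.952), Gstp3 (0.948), Rhobtb2 (0.946) and Cdc6 (0.943). The 2 sets shared 1 gene, Gstp3, which averaged 16.6 CPM in cKO and 23.7 CPM in WT. In a search of 13200 genes over 9 samples, some r this high can arise without any link to Lair1. Among the other receptors that averaged 1 CPM or more, r on deviations was negative throughout, from -0.917 (Cd96) and -0.906 (Btla) to -0.197 (Cd160).

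The chromosomal neighbours of the receptor genes were measured too. Of the 10 tested genes nearest to Lair1, 5 on each side, none was called lower in edgeR (likewise 0 by unadjusted p under 0.05, 0 by DESeq2 and 0 by limma-voom) and 1 rose. By unadjusted p under 0.05, 3 rose, and DESeq2 and limma-voom called 1 higher each. Of all genes, 8.82% were lower and 7% higher in edgeR, and 16.3% and 14.9% by unadjusted p, so little can be read from 10 genes. The gene called higher in edgeR was Mboat7, a phospholipid acyltransferase, at 0.16 (SE 0.04, edgeR adjusted p = 0.0145). Tigit, Btla, Cd200 and Cd96 lie within 2.47 Mb on chromosome 16, from 43648867 to 46120251 of mm10. Of the 23 other tested genes in that stretch, 1 rose, Atp6v1a, a subunit of the vacuolar proton pump, at 0.14 (SE 0.04, edgeR adjusted p = 0.0334), and none was called lower in edgeR (by unadjusted p under 0.05 there were 2, by DESeq2 0 and by limma-voom 1). By unadjusted p under 0.05, 4 of the 23 rose, and DESeq2 and limma-voom called 1 higher each, beside the same shares of all genes. Atp6v1a lost its call without cKO 2, cKO 6, WT 3, WT 4, WT 5 or WT 9 and with no count filter, with adjusted p up to 0.106. The 23 genes include Cd200r1, the receptor of CD200, at 2.98 CPM in cKO and 4.13 CPM in WT (adjusted p = 0.116).

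Many ligands and binding partners of the receptors were low in these cells. Of 31 listed, 17 were tested, of which 3 rose (17.6%, against 7% of all genes), 1 fell (5.88%, against 8.82%) and 13 did not pass, with a median log2 fold change of 0.20. Nectin4 rose to 0.653 CPM ± 0.155 (SD, n = 4) in cKO, against 0.220 CPM ± 0.134 (SD, n = 5) in WT (log2 1.55, SE 0.40, edgeR adjusted p = 0.0231). Nectin3, a ligand in the TIGIT and CD96 network, rose to 2.20 CPM in cKO, against 1.24 CPM in WT, and Col5a1, a fibrillar collagen chain, to 1.31 CPM in cKO, against 0.667 CPM in WT. Ceacam1, reported as a partner of TIM-3, fell to 0.467 CPM in cKO, against 0.889 CPM in WT (log2 -0.93, SE 0.24, edgeR adjusted p = 0.0248). All of these calls rest on few counts. Nectin4, from 0.0382 to 0.387 CPM in WT, lost its call without cKO 6 or cKO 7. Col5a1 overlapped between genotypes and lost its call without cKO 2, cKO 6, cKO 8, WT 3, WT 4 or WT 5. Ceacam1 lost it without cKO 6, cKO 8, WT 3 or WT 4, and Nectin3 without cKO 6, cKO 7, cKO 8, WT 4, WT 5 or WT 9. The collagen genes Col1a1, Col1a2, Col3a1, Col4a1, Col4a2, Col6a1 and Col17a1 were under the filter, with at most 0.601 CPM in any sample. The 4 ligand genes with the highest CPM were Selplg, a reported partner of VISTA, at 481 CPM in cKO and 555 CPM in WT, Lgals9 at 150.4 CPM in cKO and 160.01 CPM in WT, Lrig1 at 86.2 CPM in cKO and 78.6 CPM in WT, and Pvr at 52.2 CPM in cKO and 61.01 CPM in WT, and none of them passed. The number that rose was 0 without cKO 6 and 1 without cKO 7, cKO 8, WT 4 or WT 5 alone. The number that fell was 0 without cKO 6, cKO 8, WT 3 or WT 4 alone and 2 without WT 1.

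Genes of signalling proteins that act behind these receptors, and of the enzymes that shed them, made up, with the integrin chain Itgal, a list of 18, all tested. Of these 9 fell, 1 rose and 8 did not pass, where 8.82% of all genes fell and 7% rose, and the median log2 fold change was -0.12. All of the 18 but Lyn and Dok1 averaged 46.6 CPM (Dok2 in cKO) or more. The share of all genes also covers genes at low counts, where small shifts pass less easily, so the shares are not like for like. Dok2, an adaptor that dampens T cell receptor signalling, fell to 46.6 CPM ± 7.90 (SD, n = 4) in cKO, against 68.7 CPM ± 5.10 (SD, n = 5) in WT (log2 -0.56, SE 0.10, edgeR adjusted p = 0.00449). Inpp5d, the lipid phosphatase SHIP1, was at -0.27 (SE 0.05, edgeR adjusted p = 0.00578), and Pag1, the membrane anchor of the kinase CSK, at -0.29 (SE 0.06, edgeR adjusted p = 0.00721). Lck, the kinase that phosphorylates the T cell receptor chains, was at -0.20 (SE 0.04, edgeR adjusted p = 0.00547). The other genes that fell were Itgal, Vav1, Grb2, Csk and Bag6, between -0.21 and -0.10.

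The gene that rose was Ptpn6, which encodes SHP-1, a phosphatase that LAIR1 recruits. It averaged 331 CPM ± 33.4 (SD, n = 4) in cKO and 277 CPM ± 26.2 (SD, n = 5) in WT (log2 0.26, SE 0.08, edgeR adjusted p = 0.0462), and its samples overlapped by a small margin, from 302 to 374 CPM in cKO and from 247 to 303 CPM in WT. The Ptpn6 call was lost without cKO 6, cKO 8, WT 3, WT 4 or WT 9, with adjusted p up to 0.140. Ptpn11, the gene of the related phosphatase SHP-2, was at 198 CPM in cKO and 187 CPM in WT (adjusted p = 0.301). The sheddases Adam10 and Adam17, which cleave LAG-3 from the surface, were at -0.04 and -0.06 on the log2 scale and did not pass.

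**Figure D4:**
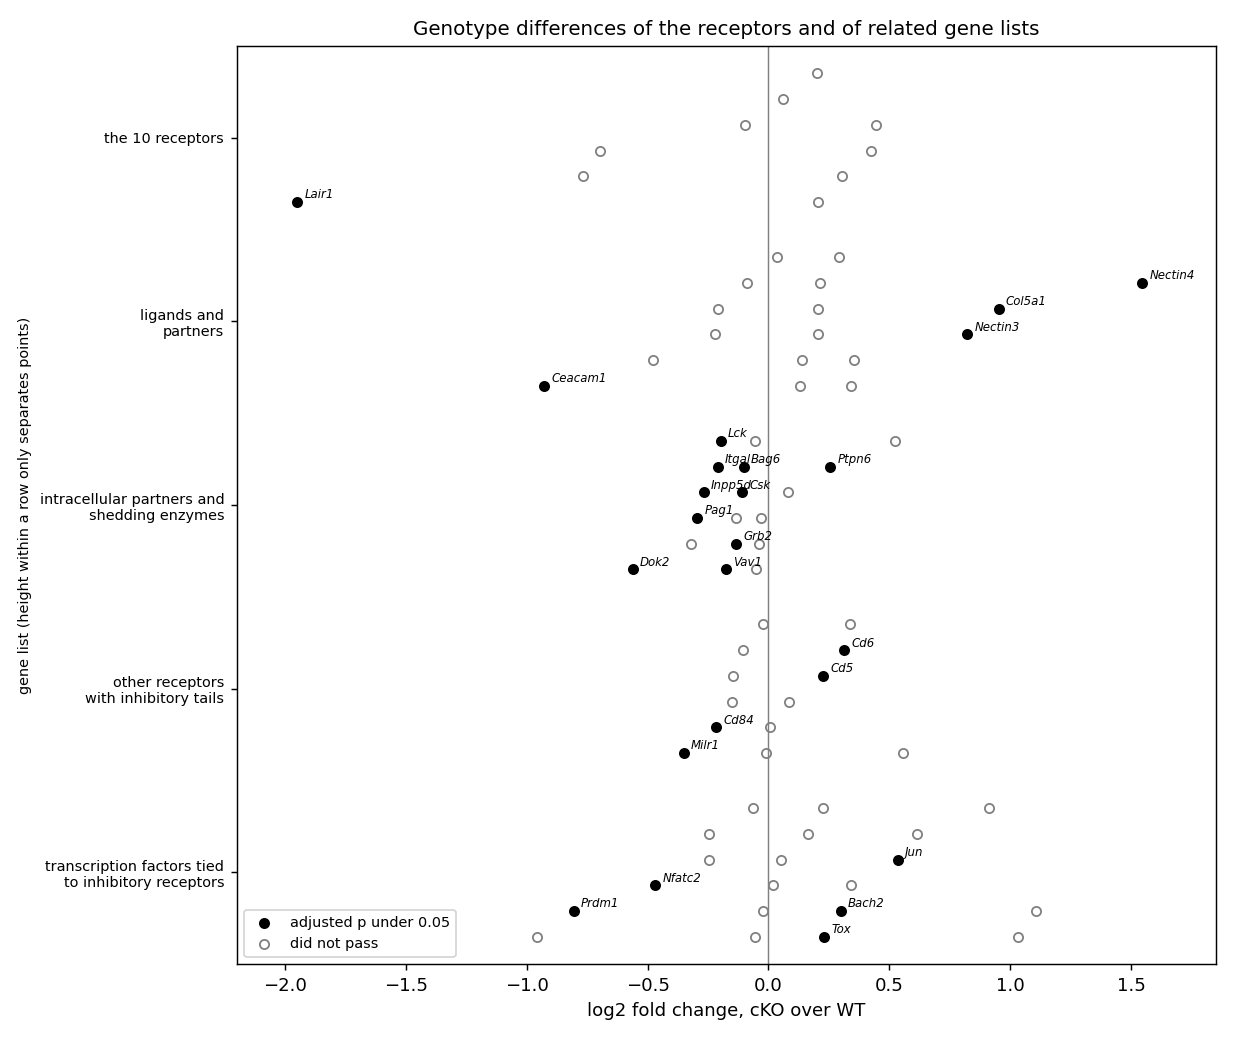
Log2 fold change of cKO over WT (horizontal axis) for each tested gene of the 10 receptors and of 4 related lists (rows), filled and named where the adjusted p was under 0.05. Of the 18 genes listed as intracellular partners and shedding enzymes 9 filled points lie left of 0 and 1 lies right of it, at 0.26 (Ptpn6), and Lair1 at -1.95 lies farther from 0 than any other point.

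Other receptors with inhibitory tails were at hand for 22 of 24 listed genes, and 13 were tested. Of these 2 rose and 2 fell, 15.4% each, against 7% and 8.82% of all genes, and 9 did not pass, with a median of -0.01. Cd6 and Cd5, a pair of related scavenger-type receptors that dampen T cell receptor signals, rose to 408 CPM ± 12.2 (SD, n = 4) and 321 CPM ± 2.71 (SD, n = 4) in cKO, against 328 CPM ± 8.32 (SD, n = 5) and 274 CPM ± 7.62 (SD, n = 5) in WT. In each, the genotypes did not overlap (log2 0.31, SE 0.03, edgeR adjusted p = 0.000272 for Cd6, and log2 0.23, SE 0.03, edgeR adjusted p = 0.00130 for Cd5). Milr1, known in mast cells as the inhibitory receptor allergin-1, fell to 10.8 CPM in cKO, against 13.7 CPM in WT, and Cd84, of the SLAM family, fell to 43.9 CPM in cKO, against 51.01 CPM in WT. The checkpoint genes Ctla4, at 510.3 CPM in cKO and 480.4 CPM in WT, and Pdcd1, at 17.4 CPM in cKO and 17.3 CPM in WT, did not pass. Milr1 lost its call without cKO 6 and Cd84 without cKO 2, cKO 6, cKO 8, WT 4 or WT 5, and the number that fell was 0 without cKO 6 and 1 without cKO 2, cKO 8, WT 4 or WT 5.

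Transcription factors tied to inhibitory receptor expression formed a list of 20, all tested. In it 3 rose (15%, against 7% of all genes), 2 fell (10%, against 8.82%), and the remaining 15 did not pass (median 0.11). Nfatc2, a calcium-dependent factor, fell to 169.8 CPM ± 14.4 (SD, n = 4) in cKO, against 235 CPM ± 14.1 (SD, n = 5) in WT (log2 -0.47, SE 0.06, edgeR adjusted p = 0.00107). Prdm1, which encodes BLIMP-1, fell to 6.59 CPM in cKO, against 11.6 CPM in WT (log2 -0.81, SE 0.24, edgeR adjusted p = 0.0448). Bach2 rose to 334 CPM in cKO, against 271 CPM in WT, Tox to 50.9 CPM in cKO, against 43.3 CPM in WT, and Jun to 32.01 CPM in cKO, against 22.1 CPM in WT. Maf, a factor known to act with BLIMP-1 on coinhibitory receptor genes in mouse T cells and named here with its values already known, was at 7.65 CPM in cKO and 14.9 CPM in WT (adjusted p = 0.0772). Other factors that did not pass averaged more in cKO. Among them were Nr4a3 (log2 1.11, edgeR adjusted p = 0.0546), Tbx21 (1.03, adjusted p = 0.134) and Eomes (0.91, adjusted p = 0.115). The Prdm1 call was lost without cKO 6, cKO 7, cKO 8, WT 3, WT 4 or WT 5, with adjusted p up to 0.131. The Jun call was lost without cKO 6, and the Tox call without cKO 6, cKO 7 or cKO 8. Without WT 1 there were 7 that rose, and without cKO 6 there was 1, and the number that fell was 1 without cKO 6, cKO 7, cKO 8, WT 3, WT 4 or WT 5.

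Markers of other cells that can carry these receptors were measured beside them, and their part in the receptor values was not tested. The 8 macrophage and monocyte markers summed to between 32.4 and 52.4 CPM in cKO and between 22.5 and 37.9 CPM in WT, most of it Csf1r, at 15.5 CPM in cKO and 14.3 CPM in WT, and Mpeg1, at 20.5 CPM in cKO and 8.70 CPM in WT, which did not pass. Cd68, at 3.39 CPM in cKO and 2.76 CPM in WT, did not pass, Itgam fell to 0.373 CPM in cKO, against 1.34 CPM in WT, and of the other 4 markers Lyz2, Cd14 and Fcgr1 had at most 3 counts in any sample. The 6 natural killer cell markers summed to between 2.57 and 8.35 CPM in cKO and between 0.496 and 2.03 CPM in WT, mainly Klrd1, which rose, and Klre1, while Ncr1 and Klra8 had at most 3 counts in any sample. The 8 B cell markers summed to between 3.26 and 5.19 CPM in cKO and between 3.68 and 6.16 CPM in WT, where Cd79b fell to 0.911 CPM in cKO, against 1.72 CPM in WT, and Cd79a did not pass. The 6 CD8 T cell markers ran from 63.2 to 167 CPM in cKO and from 37.4 to 87.3 CPM in WT, mostly Gzmb and Eomes. Neither Gzmb nor Eomes passed, and Eomes is also among the transcription factors above, so the sum is no measure of CD8 T cells. Cd8b1 was the 1 that rose, to 14.1 CPM in cKO, against 11.6 CPM in WT. Cd8a, at 2.70 CPM in cKO and 1.80 CPM in WT, did not pass. The 6 gamma-delta T cell markers, led by Tcrg-C2 and Tcrg-C4, ran from 4.42 to 9.15 CPM in cKO and from 4.63 to 5.87 CPM in WT. Dendritic cell markers, led by Zbtb46 and Batf3, summed to at most 6.33 CPM in cKO and 5.38 CPM in WT with Clec9a at 0 in all samples. The markers of stroma and vessels consisted mostly of Pecam1, at 97.3 CPM in cKO and 108 CPM in WT. Pecam1 is also listed among the other receptors with inhibitory tails, so it is no specific marker here. Pdgfrb was at 0.415 CPM in cKO and 0.166 CPM in WT. The 8 markers of follicular helper T cells, which carry much Btla and Cd200, summed to between 124 and 132 CPM in cKO and between 116 and 130.2 CPM in WT, led by Sh2d1a and S1pr2. The share of mitochondrial counts ran from 2.42% to 2.72% in cKO and from 2.31% to 2.46% in WT.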

How the data were processed

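RNA-seq counts of 9 samples, 4 cKO and 5 WT, were analysed. The authors deposited raw counts per Ensembl gene ID, whole numbers that were not normalized. Per the labels' protocols, libraries were stranded and made after mRNA enrichment. Bcl2fastq 2.17 and the build mm10 are named in the submitters' processing notes. Not given in the sources used here: the aligner, the counting tool and its strand setting. Columns were matched to samples by title. Every pair of samples within a genotype differed beyond sampling noise (chi-square per gene 3.34 to 20.3). Pairs of a cKO and a WT sample ran from 10.3 to 37.6, so the ranges overlapped. WT 1 was closest to WT 3 (7.31) and WT 5 (8.45). It lay nearer to cKO 7 (13.3), cKO 8 (13.8) and cKO 2 (14.0) than to WT 4 (20.3) or WT 9 (18.8).

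Symbols were found for 37693 of 39017 IDs, with positions and exonic lengths from GENCODE M21. The listed genes Lilrb4a, Lilrb4b and Ccl21a had no matching ID. The test was edgeR 4.0.16's quasi-likelihood F test (R 4.3.3, two-sided) on all 9 samples, with TMM, filterByExpr and Benjamini-Hochberg adjustment over 14693 genes. Log2 CPM used a prior count of 2, and 1 CPM was at least 20.8 counts. The script was run on simulated counts, with the outcome not given here. These counts were drawn independently for each gene and sample, so shifts shared by many genes of a sample were not covered. Alternatives were DESeq2 1.42.0, limma-voom 3.58.1, other scalings and filters, and leaving out each sample.

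The receptor genes and the gene lists were chosen with earlier results of these data known. Genes named by rule were the receptors, Kdm6a and its paralogs, Cd4, up to 4 called genes per list and direction, the 6 genes most like Lair1 by each measure, called neighbours, and the 2 most abundant genes of each marker list. Further genes were named outside this rule, among them Maf, Nr4a3, Cd69, Ctla4, Pdcd1, Ptpn11, Adam10 and Adam17. No test over a list was made. Promoter sequences are from RefSeq (GRCm38.p6), matched by symbol for 8 of the 10 receptors.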

Additional observations from a re-analysis of the deposited data

Results flagged for a closer look

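Among 45 genes examined in each genotype, 90 groups of samples in all, 5 groups held a sample far from the others by Dixon's criterion. Chance flags about 1 in 20 such groups. That rate does not hold for Rhobtb2, Cdc6 and Gstp3, which were chosen because they varied like Lair1 within genotypes. Lair1 was itself lowest in WT 1 and cKO 6. Cd226 was at 52.4 CPM in WT 1, against 37.6 to 40.0 CPM in the other WT samples. Rhobtb2 was at 41.9 CPM in WT 1, against 45.9 to 47.4 CPM, and Cdc6 at 125 CPM in WT 1, against 133 to 135 CPM. Inpp5d was at 132 CPM in WT 9, against 139 to 141 CPM in the other WT samples. Gstp3 was at 13.8 CPM in cKO 6, against 17.5 to 17.7 CPM in the other cKO samples.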

How the results depend on the processing

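Lair1 stayed lower and past the threshold in all 15 other settings, with log2 fold changes between -2.08 and -1.74. The number of receptors called higher was 0 in edgeR, 1 with upper-quartile scaling and 1 with DESeq2, and ran from 0 to 3 when 1 sample was left out (3 without cKO 2, 2 without WT 1). The number called lower ran from 1 to 2 (2 without WT 9). Over all genes, 1028 were higher and 1296 lower, against 1265 and 1068 with upper-quartile scaling, from 531 (without cKO 6; 632 without cKO 8, 651 without WT 4 and 662 without WT 9) to 1363 higher and from 732 (without cKO 6) to 1570 lower with 1 sample left out. Of the ligands, 2 were lower with no count filter and with DESeq2, and 0 lower and 1 higher with at least 1 CPM in 4 samples, which leaves fewer genes tested; leaving out 1 sample gave 0 to 2 lower and 0 to 3 higher. With 1 sample left out, the signalling genes had 7 to 9 lower (10 with DESeq2) and 0 to 1 higher, the other inhibitory receptors 0 to 3 lower and 2 to 3 higher, and the transcription factors 1 to 3 lower and 1 to 7 higher. With 1 sample left out, neighbours of Lair1 had 0 lower and 1 to 2 higher. In the chromosome 16 stretch limma-voom called 1 lower, no count filter gave 0 higher, and leaving out 1 sample gave 0 to 1 lower and 0 to 2 higher. Of the 6 genes most like Lair1, 1 remained on deviations from genotype means. Kdm6b changed sign without WT 4 (-0.0665) and without WT 9 (-0.0631), in a range up to 0.34 without WT 1. Except where stated, the cause was not tested. No paired analysis was possible because the labels give no pairing of cKO with WT samples, and the replicate numbers only count the samples. Depth limits Havcr2, with at most 19 counts per sample, and also Nectin4 and Ceacam1, which averaged under 1 CPM in both genotypes, and Col5a1 in WT. Limits of counting cover counting error only.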
